A study of Mus musculus with 9 samples.

Results

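In colon RNA of mice given a carcinogen and a gut irritant, 115 genes read at least 4-fold below their level in untreated mice, both without and with oral vanillin. They were chosen by their measured values: on the scale of log2(intensity + 16), with negative intensities set to 0, the group mean had to lie at least 2 below that of the untreated group in both treated groups. The rule found 139 named probes, and 21 of them were left out because their symbol begins with Krt, Klk, Sprr, Lce, Muc, Cldn, Col, Cyp, Hox or Myh in the platform's or the current naming. That left 118 probes of 115 genes, of 20377 named probes of 17742 genes and 26423 probes in all. Since the differences from the untreated group chose the genes, they are given here as a description, with no test. The female BALB/c mice formed 3 groups with 3 arrays each. Mock mice were untreated. Sham mice received azoxymethane (AOM), an alkylating colon carcinogen, at 12.5 mg/kg into the peritoneum on day 1. Dextran sodium sulfate (DSS), which damages the colon lining, was put into their water at 2.5% from day 8 for 5 days, followed by 16 days of plain water, and this was repeated for 3 more cycles. Vanillin mice went through that same AOM/DSS course and were given 100 mg/kg of vanillin by mouth for 91 days. No group received vanillin without AOM/DSS, so the Vanillin to Mock difference holds both treatments. Nothing in the labels says that the arrays within a group were separate mice, so every p-value here sets a difference against the spread of these arrays alone, part or all of which may be technical.

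The inner lining of the colon is a single layer of absorptive, goblet and endocrine cells, over a wall of smooth muscle with its own nerves. Stratified squamous epithelium, which forms skin and the lining of the mouth and anal canal, builds a barrier from cross-linked proteins, gap junctions and secreted protease inhibitors. Striated muscle contracts through sarcomeres and holds its own form of creatine kinase. Its fast fibres hold their own forms of calcium pump and actinin, and parvalbumin. Many of the genes described here belong to these squamous and striated muscle programmes, although the labels give the tissue as colon.

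Among the 118 probes, 36 belong to genes of striated muscle and 21 to genes of squamous epithelium and skin. Another 7 belong to gut epithelium and mucosal secretion, 7 to milk and other glands, 6 to nerve and glia, and 5 to hormones, growth factors and cytokines. The remaining probes are 10 of metabolic or matrix enzymes and 26 of other or unassigned genes. These roles were assigned after the values were seen and carry no test. The median Sham minus Mock difference was -3.73 (range -7.65 to -2.01), and the median Vanillin minus Mock difference was -2.43 (range -5.72 to -2.01). As a share of the Mock intensity, the median was 6.25% in Sham (0.271% to 24.3%) and 17.0% in Vanillin (0.985% to 24.8%). For all 118 probes, every Sham and every Vanillin array lay below the lowest Mock array. Over all 26423 probes, 3.5% met the threshold in Sham, 0.742% in Vanillin and 0.64% in both, so the threshold in Vanillin did most of the selecting. The smaller of the 2 losses was the one in Vanillin for 91 of the 118 probes.

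Lost does not mean absent for most of these genes. Their mean intensity in Mock ran from 174 to 58445, with a median of 2572. In Sham the median was 133, and 30 of the 118 probes had a mean below 50, a level under which 19.8% of all probes lay in that group. In Vanillin the median was 427, and 10 probes had a mean below 50, against 19.9% of all probes. Just inside the threshold were Kbtbd11, Tpm1, Pfkm, Mettl21c and Neb, whose smaller losses ran from -2.01 to -2.02, and just outside were Lman1l, Sugp2, Nkpd1, Il1f6 and Adssl1 (from -1.97 to -1.998). In all, 69 of the 118 probes lay within 0.5 of the threshold in one group or the other. In whole colon RNA, fewer cells of a type and less RNA per cell cannot be told apart.

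**Figure D1:**
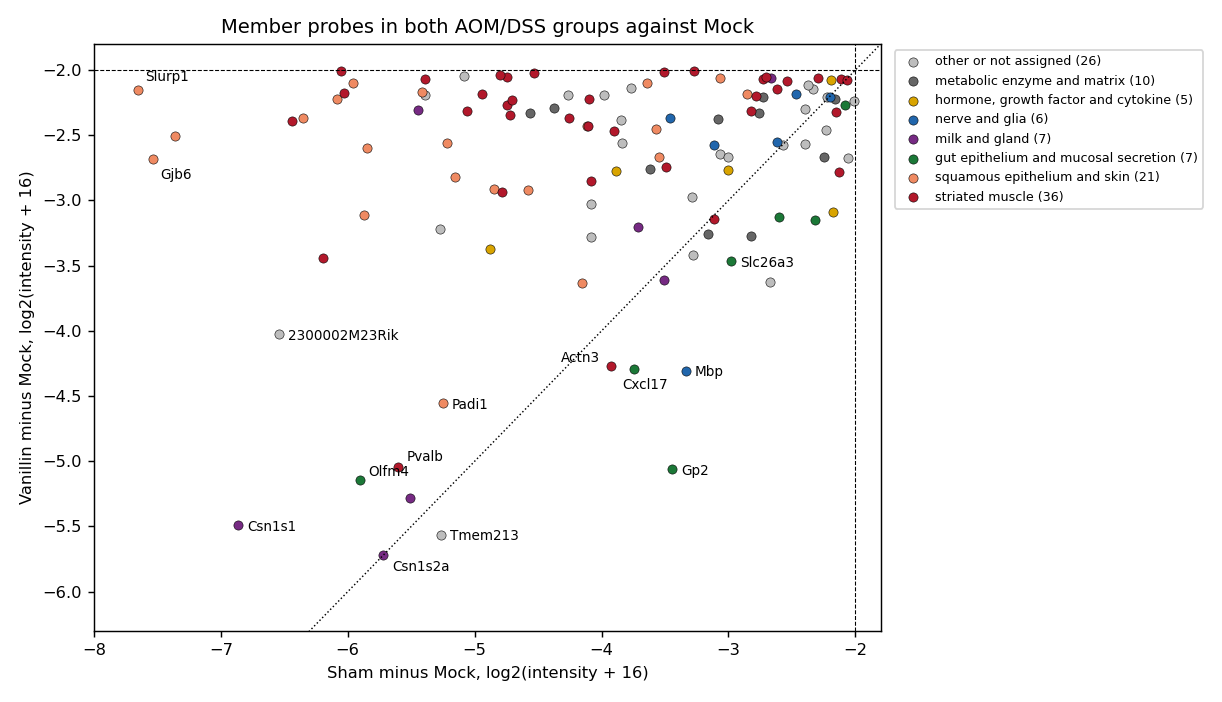
Each point is 1 of the 118 member probes, with its Sham minus Mock difference on the x axis and its Vanillin minus Mock difference on the y axis, both of group means of log2(intensity + 16). Colours give the role, dashed lines the threshold of -2 and the dotted line equal differences; most points crowd along the upper edge between -2 and -2.5 in Vanillin, while they spread from -2 to -7.65 in Sham.

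The members were then compared between the 2 AOM/DSS groups. Vanillin and Sham were compared with limma over all 26423 probes, with Benjamini-Hochberg adjustment, and a probe is called where the adjusted p is under 0.05. Among the members, 81 probes were higher in Vanillin (68.6%) and 17 were lower (14.4%), while 20 were not called. Over all probes tested, 47.9% were called, 15.7% higher and 32.2% lower. The Sham and Vanillin arrays did not overlap for 98 members, a pattern found in 56.3% of all probes. Where the readings of single arrays are printed, the 3 groups did not overlap unless stated. The median Vanillin minus Sham difference was 0.76 (range -1.62 to 5.50), against -0.094 over all probes. These shares are no result about the members as a set, because both losses entered the rule, and with the Vanillin losses held close to -2 a deeper loss in Sham appears as a higher level in Vanillin. Among the 49 probes at least 0.5 past the threshold in both groups, 30 were higher, 9 were lower and the median was 0.56. Those probes were chosen from the same losses with the cut moved, so their count is no check on the rule. By role, all 21 probes of squamous epithelium and skin and 30 of 36 of striated muscle were higher in Vanillin. Of the 7 of gut epithelium and mucosal secretion, 5 were lower, and the other roles were mixed.

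**Figure D2:**
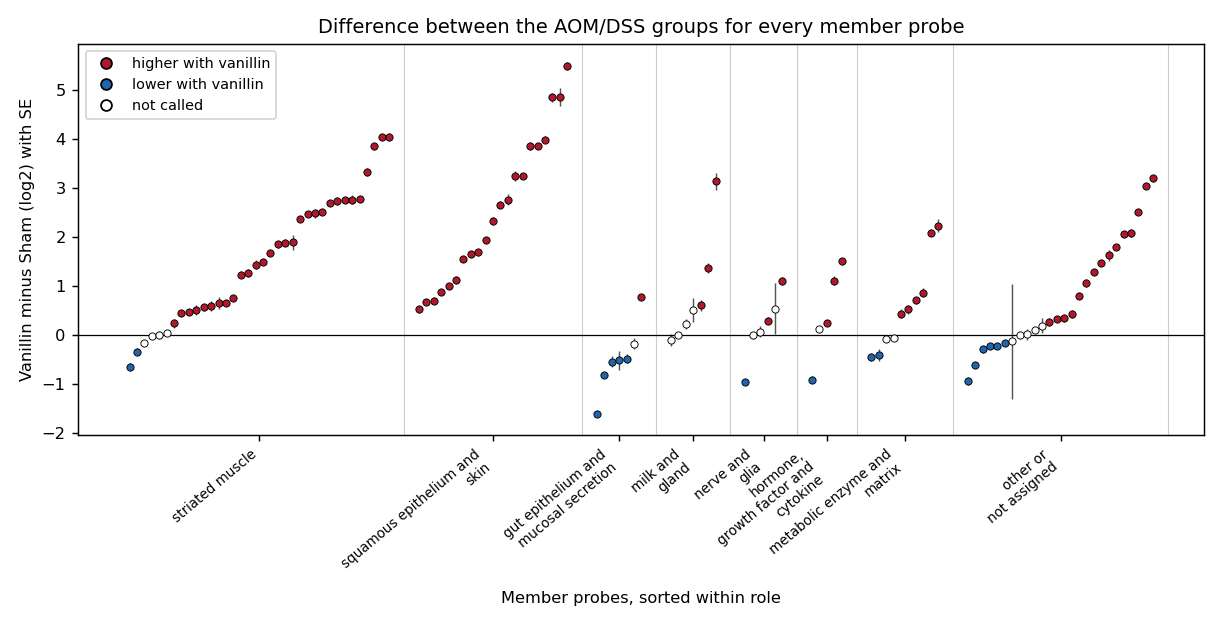
Vanillin minus Sham difference of log2(intensity + 16) for every member probe, sorted within its role, with the standard error of the limma fit. Red points were called higher, blue lower and open points not called. The squamous probes run from 0.52 to 5.50, and the probes of gut epithelium and mucosal secretion from -1.62 to 0.77.

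The largest set was striated muscle, with 36 probes of 34 genes and a median loss of -4.09 in Sham and -2.23 in Vanillin.
The promoters of the muscle creatine kinase gene Ckm, the fast-fibre gene Atp2a1 and the thin-filament gene Lmod2 are printed. They were chosen because each holds CAGCTG, an E-box that myogenic factors can bind, shown in capitals.
They are RefSeq promoters on GRCm38.p6, from 250 bases before to 50 after the annotated start, written 5′ to 3′ on the gene's strand.
Ckm (chr7:19410844-19411143, plus strand): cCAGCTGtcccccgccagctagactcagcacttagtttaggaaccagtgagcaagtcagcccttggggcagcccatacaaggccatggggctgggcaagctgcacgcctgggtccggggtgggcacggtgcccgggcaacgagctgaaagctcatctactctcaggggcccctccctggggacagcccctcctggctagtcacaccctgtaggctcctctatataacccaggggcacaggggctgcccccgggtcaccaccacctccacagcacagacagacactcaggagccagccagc
Atp2a1 (chr7:126463024-126463323, minus strand): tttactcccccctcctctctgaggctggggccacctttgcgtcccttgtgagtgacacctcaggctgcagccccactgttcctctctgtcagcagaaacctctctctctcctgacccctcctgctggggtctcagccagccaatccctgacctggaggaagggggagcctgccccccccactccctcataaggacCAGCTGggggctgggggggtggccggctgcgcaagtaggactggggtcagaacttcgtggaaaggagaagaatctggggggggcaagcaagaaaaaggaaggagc
Lmod2 (chr6:24597521-24597820, plus strand): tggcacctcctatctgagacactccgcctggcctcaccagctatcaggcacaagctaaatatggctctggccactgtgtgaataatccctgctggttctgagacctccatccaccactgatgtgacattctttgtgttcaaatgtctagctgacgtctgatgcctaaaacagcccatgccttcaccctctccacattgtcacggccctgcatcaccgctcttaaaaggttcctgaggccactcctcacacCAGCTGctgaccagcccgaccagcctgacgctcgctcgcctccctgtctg
The capitals begin at base -249 from the start in Ckm, -55 in Atp2a1 and 0, the start itself, in Lmod2.
The table held promoters for 78 of the 115 genes, some with several, and of its 34 promoters of striated muscle genes 15 (44.1%) have CAGCTG, which reads the same on both strands.
Over all 32841 promoters of this length in the table the share was 16.3%, and over the 93 held for all members 26.9%.
A match is a description of the letters in this window and does not show a bound site. CAGCTG is 1 of 8 motifs searched, and the shares of most others are not given by role. In the 16 promoters held for squamous genes, CAGCTG was in 18.8%. There the TFAP2 motif GCCNNNGGC was in 6.25%, against 16.6% over all promoters, and the AP-1 motif TGANTCA in 12.5%, against 7.81%.

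Ckm, the muscle creatine kinase that buffers ATP, read 23562, 20297 and 22338 in the Mock arrays, 251, 229 and 236 in Sham, and 3817, 4232 and 4542 in Vanillin. Each Vanillin array was well above each Sham array and still far below Mock. The Vanillin minus Sham difference was 4.05 (SE 0.080, adjusted p = 5.93e-10), and Sham stood at 1.08% of Mock and Vanillin at 19.0%. Atp2a1, the calcium pump that refills the sarcoplasmic reticulum of fast fibres, read 10818, 10441 and 10557 in the Mock arrays, 140.5, 121 and 125 in Sham, and 951, 995 and 934 in Vanillin. Its groups did not overlap, and Vanillin minus Sham was 2.75 (SE 0.059, adjusted p = 1.05e-09). One probe of Tpm1, the tropomyosin that lies along actin filaments, read 9971, 10378 and 10829 in the Mock arrays, 143, 136 and 144 in Sham, and 2713, 2439.8 and 2562 in Vanillin, a difference of 4.04 (SE 0.057, adjusted p = 6.22e-11). Smtnl1, a smoothelin-like protein of striated and smooth muscle, read 1915, 1659.9 and 1838 in the Mock arrays, 13.1, 11 and 11.4 in Sham, and 359, 392 and 409 in Vanillin. All its Sham arrays read below 50, and Vanillin minus Sham was 3.85 (SE 0.071, adjusted p = 3.63e-10). Trdn, triadin of the calcium release complex, had a Vanillin minus Sham difference of 3.33 (SE 0.078, adjusted p = 2.09e-09) on its member probe.

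Other sarcomere and fibre genes were also higher in Vanillin. Ldb3 of the Z-disc differed by 2.77, the mitochondrial Cox6a2 by 2.76, Lmod2 by 2.74, and Hjv, hemojuvelin, an iron regulator made in muscle and liver, by 2.69. The giant thin-filament protein nebulin, Neb, differed by 2.51, the sarcomere-stabilising Klhl41 by 2.47, the muscle AMP deaminase Ampd1 by 2.38 and the ADP-ribosyltransferase Art1 by 2.48. Smaller increases were seen for Ckmt2, the sarcomeric mitochondrial creatine kinase, at 1.23, and for Pfkm, the muscle phosphofructokinase, at 1.26. Eef1a2, a translation factor form of muscle and neurons, differed by 1.85, the muscle RING protein Trim54 by 1.88, taxilin beta, Txlnb, by 1.67 and the methyltransferase Mettl21c by 1.49. Klhl40, Ak1, Hspb7, Pdlim3, Abra, Sh3bgr, Alpk3 and Nmrk2 differed by 0.23 to 0.75 and were called higher. The call of Nmrk2 held in only 4 of 18 alternatives, with an adjusted p of 0.0905 with the replicate number as a block and a range of 0.0137 to 0.216 over all of them. Both member probes of Rpl3l, a ribosomal protein form of striated muscle, were called higher, at 1.89 and 1.43, while its other probe had no loss (0.063 and 0.062) and was not called (adjusted p = 0.988).

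Other muscle genes behaved differently. Pvalb, the calcium buffer parvalbumin of fast fibres, read 3979, 4436 and 4033 in the Mock arrays, 72.1, 75.7 and 61.4 in Sham, and 107, 108 and 116 in Vanillin. It stayed low in both AOM/DSS groups, at 1.68% and 2.66% of Mock, with a Vanillin minus Sham difference of 0.56 (SE 0.075, adjusted p = 3.12e-04). Actn3, the actinin of fast fibres, read 1199, 1098 and 1119 in the Mock arrays, 66.2, 54.4 and 60.1 in Sham, and 46, 43.9 and 41.7 in Vanillin, and was lower in Vanillin, at -0.35 (SE 0.067, adjusted p = 0.00261). Fbxl22, an F-box protein of the Z-disc, was also lower in Vanillin, at -0.65 (SE 0.085, adjusted p = 2.60e-04). The genes Pln, phospholamban, Tnnt2, the cardiac troponin T, and Popdc2 on both probes were not called, with differences between -0.17 and 0.046. Tnnt2 read 3878, 4259 and 3965 in the Mock arrays, 948, 889 and 849 in Sham, and 835, 785 and 766 in Vanillin, so its Vanillin arrays lay below all Sham arrays by a small margin (adjusted p = 0.0518). Slow, cardiac or smooth muscle also uses several of these genes.

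The skeletal muscle marker list placed these members among the other genes of that tissue. Of 55 measured list genes, 15 were members, 25 met the threshold only in Sham, 1 only in Vanillin and 14 in neither. Lists take 1 probe per gene, the one with the highest mean over all arrays, in their sums, medians and calls, and for Trdn, Ldb3, Calml3 and Smgc that probe is not the member. The summed intensity of the list ran from 309759 to 322284 in the Mock arrays, from 26007 to 27033 in Sham and from 114749 to 119121 in Vanillin. In Vanillin minus Sham, 41 list genes were higher, 5 lower and 9 not called, with a list median of 1.11. The smooth muscle list moved less: 2 of its 14 measured genes, Hspb7 and Pcp4, were members and 4 met the threshold only in Sham. Its summed intensity was 112280 to 113836 in Mock, 55516 to 58232 in Sham and 62077 to 66180 in Vanillin. The adipocyte list had no member among 42 measured genes, although 21 met the threshold in Sham, and it summed to 320254 to 328529 in Mock, 68125 to 70451 in Sham and 275812 to 287268 in Vanillin. The summed intensities of the skeletal muscle, adipocyte and cornified layer lists were lowest in Sham and lay between Sham and Mock in Vanillin. The sizes differed: the list medians of Vanillin minus Mock were -1.64, -0.379 and -0.582. In Vanillin minus Sham, 31 adipocyte genes were higher, 5 lower and 6 not called. The part that tissue make-up has in the muscle genes was not tested.

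**Figure D3:**
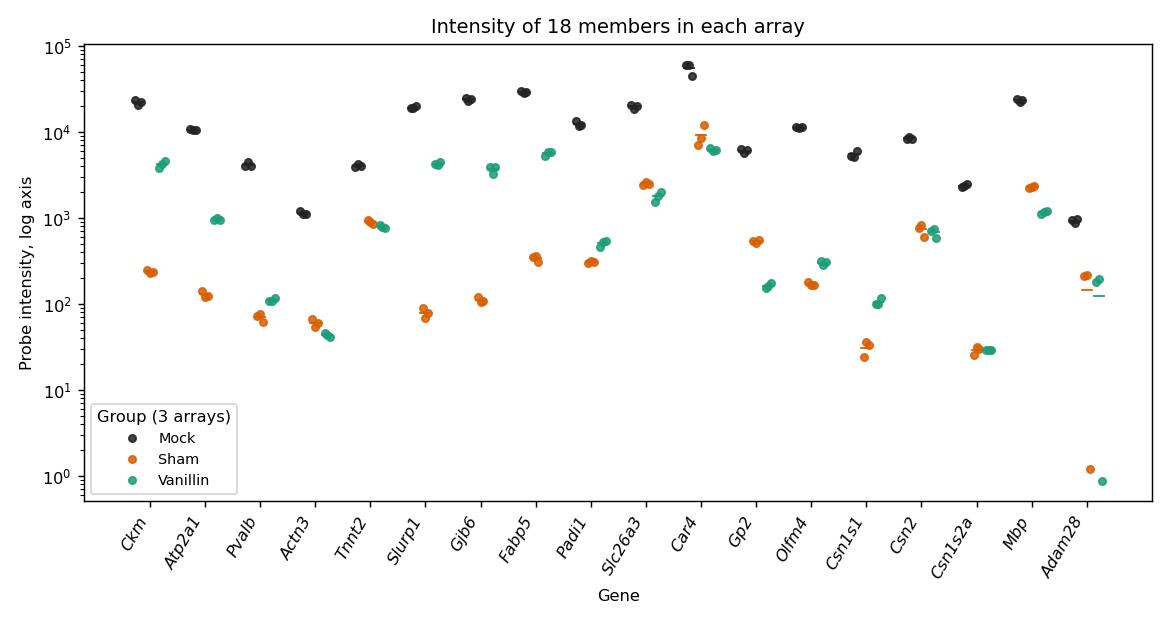
Intensity of 18 members in each of the 9 arrays on a log axis, with 1 point per array and a short line at the group mean. Mock points (black) lie above all others; Vanillin points (green) lie well above Sham points (orange) for Ckm and Slurp1, beside them for Csn1s2a and below them for Gp2, and the third Sham and Vanillin arrays read near 1 for Adam28.

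Squamous epithelium and skin gave 21 probes of 21 genes, with a median Vanillin minus Sham difference of 2.33. All 21 were called higher in Vanillin than in Sham, against 15.7% of all probes. That count is only a description, because both losses entered the rule and the role was assigned after the values were seen. Padi4 and Padi2, both lower in Vanillin, were placed with the metabolic or matrix enzymes and Padi1 in this role. Among the roles, squamous epithelium and skin had the largest median difference between the AOM/DSS groups. The median loss of these probes was -5.22 in Sham and -2.50 in Vanillin. Slurp1, a secreted Ly6-type protein needed for healthy palm and sole skin, read 18685, 18672 and 19685 in the Mock arrays, 89.6, 68 and 78.9 in Sham, and 4257, 4128 and 4431 in Vanillin. Vanillin minus Sham was 5.50 (SE 0.080, adjusted p = 7.63e-11), at the top of all members. Gjb6, connexin 30 of keratinocyte gap junctions, read 24351, 22568 and 24084 in the Mock arrays, 119.7, 106 and 109.5 in Sham, and 3902, 3231 and 3934 in Vanillin, a difference of 4.86 (SE 0.084, adjusted p = 2.31e-10). Its neighbour Gjb2, connexin 26, read 58397, 59351 and 57586 in the Mock arrays, 2068, 1930.2 and 2053 in Sham, and 7679.9, 7687 and 7839 in Vanillin. The Sham minus Mock difference of Gjb2 was -4.85, against -7.54 for Gjb6, and its Vanillin minus Sham was smaller, at 1.93 (SE 0.046, adjusted p = 2.11e-09). Fabp5, the fatty acid binding protein of keratinocytes, read 29730.0, 28287 and 28603 in the Mock arrays, 348, 356 and 309.8 in Sham, and 5177, 5759.7 and 5855 in Vanillin. It was higher in Vanillin by 3.99 (SE 0.069, adjusted p = 2.40e-10), with no overlap between groups.

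Transcription factors of this set shared the pattern. Dlx5, a homeobox factor of skin appendages and bone, read 4405, 4329 and 4675 in the Mock arrays, 11.9, 3.67 and 20.8 in Sham, and 743, 764 and 820.3 in Vanillin, and was 4.86 (SE 0.19, adjusted p = 6.93e-08) apart between Vanillin and Sham. Its Sham readings were low, and over the alternatives the difference ran from 3.47 to 6.15. Pitx1, a hindlimb and oral epithelium factor, differed by 0.88 (SE 0.053, adjusted p = 1.77e-06). Of 33 measured keratinocyte transcription factors, 3 were members (Dlx5, Pitx1 and Elf5), 10 met the threshold only in Sham and 20 in neither. The hydrogen peroxide producing oxidase Duox1 and its maturation factor Duoxa1 lie beside each other in the genome and differed by 3.25 (SE 0.051, adjusted p = 1.17e-10) and by 2.66 (SE 0.065, adjusted p = 2.64e-09). Duox1 read 3747, 3741 and 3774 in the Mock arrays, 46, 53 and 49.7 in Sham, and 596, 619 and 609 in Vanillin. The protease inhibitor Spink12 differed by 3.86, the immunoglobulin-type membrane protein Vsig8 of the hair shaft by 3.86, and the calmodulin-like Calml3 by 3.25. Defb4, an antimicrobial defensin, differed by 2.33, and S100a7a, a psoriasin-type S100 protein, by 1.12. Tgm5, a transglutaminase that cross-links the cornified envelope, differed by 1.68, and Crnn, cornulin, by 1.54.

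The linked serine proteases Tmprss11a, Tmprss11b and Tmprss11d of airway and oral epithelium were members. Tmprss11a read 5507, 5385 and 5794 in the Mock arrays, 72.1, 84.2 and 81.3 in Sham, and 524, 640.4 and 744 in Vanillin, a difference of 2.76 (SE 0.11, adjusted p = 1.17e-07). Tmprss11b differed by 1.66 and Tmprss11d by 0.52, so that neighbouring genes with losses of -5.87, -4.58 and -4.15 in Sham kept different levels in Vanillin. Padi1, which converts arginine to citrulline in keratinocyte proteins, read 13488, 11548 and 11938 in the Mock arrays, 300.1, 311 and 309.8 in Sham, and 461, 528 and 537 in Vanillin. It stayed low in both groups, at 2.49% and 4.13% of Mock, and differed by 0.70 (SE 0.077, adjusted p = 9.51e-05). Its relatives Padi4 and Padi2 lie within the same cluster and went the other way, lower in Vanillin, at -0.45 (SE 0.081, adjusted p = 0.00177) and -0.41 (SE 0.11, adjusted p = 0.015). Plcd1, a phospholipase of hair and skin, and Prss53, a serine protease expressed in hair follicles, differed by 0.67 and 1.00.

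Most measured genes of the cornified layer met the threshold in Sham and not in Vanillin, and so were not members. Of 30 measured genes of the cornified layer, 2 were members (Tgm5 and Calml3), 25 met the threshold only in Sham and 3 in neither. That list summed to 820282 to 834149 in the Mock arrays, 17562 to 17894 in Sham and 664749 to 672355 in Vanillin. Some of its genes read near the highest value of any array, 65510, in Mock and Vanillin. Dmkn had means of 65510 and 65460, and Calm4 of 65430 and 65510, so the sums may hide differences between Mock and Vanillin. Of 29 surface and secreted keratinocyte proteins, 6 were members, 16 met it only in Sham and 7 in neither. Of 20 desmosome and gap junction genes, 2 were members (Gjb2 and Gjb6), 7 met it only in Sham and 11 in neither. In Vanillin minus Sham, 28 of the 30 cornified genes and 26 of the 29 surface genes were called higher, and none lower, with list medians of 5.30 and 2.93. The desmosome and gap junction list had 16 higher, 1 lower and 3 not called (median 1.29), and the keratinocyte transcription factors 22 higher, 7 lower and 4 not called (median 0.51). Markers of melanocytes, a skin cell of another origin, summed to 3217 to 3286 in Mock, 1294 to 1614 in Sham and 2394 to 2687 in Vanillin, with 1 of 6 genes past the threshold in Sham. Whether the amount of squamous tissue in the samples bears on these genes was not tested.

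**Figure D4:**
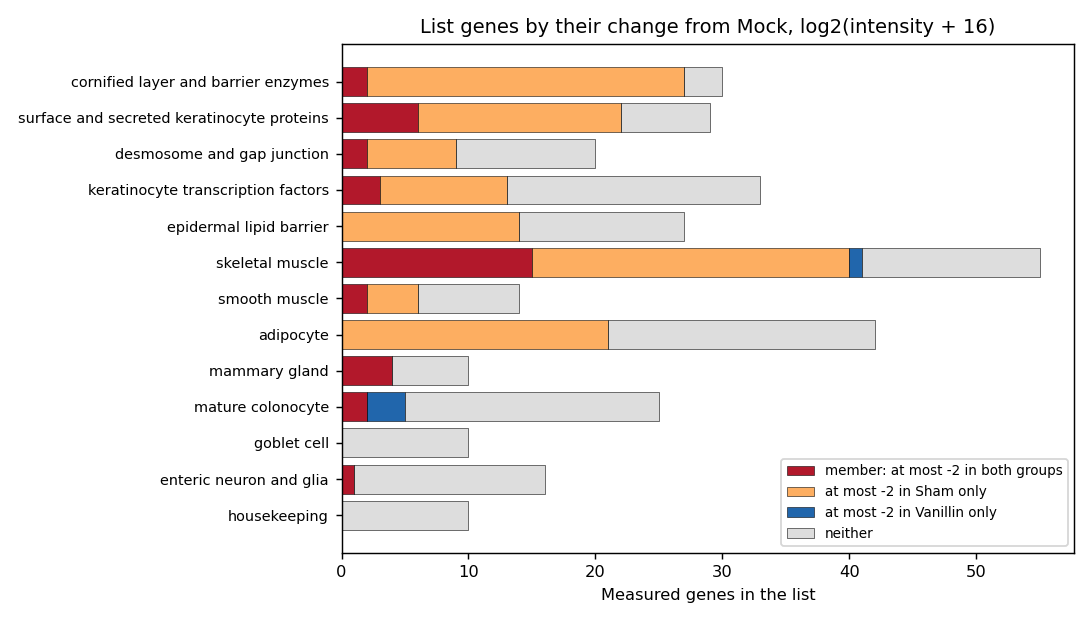
Number of measured genes in 13 gene lists, split by whether the difference from Mock in log2(intensity + 16) was at most -2 in both groups (members), in Sham only, in Vanillin only or in neither. A gene counts as a member where any of its probes is one, and otherwise by its probe with the highest mean. The cornified, muscle and adipocyte lists are mostly or partly past the threshold in Sham only, whereas the colonocyte list holds 2 members and 3 genes past it in Vanillin only.

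Of the 7 members of gut epithelium and mucosal secretion, 5 were called lower in Vanillin than in Sham, as were 32.2% of all probes. With 7 probes in a role assigned after the values were seen, that count is only a description.
The promoter of Slc26a3 is printed because its product marks mature colonocytes, and TATAAA is in capitals, its first base at -30 from the start.
Slc26a3 (chr12:31437969-31438268, plus strand): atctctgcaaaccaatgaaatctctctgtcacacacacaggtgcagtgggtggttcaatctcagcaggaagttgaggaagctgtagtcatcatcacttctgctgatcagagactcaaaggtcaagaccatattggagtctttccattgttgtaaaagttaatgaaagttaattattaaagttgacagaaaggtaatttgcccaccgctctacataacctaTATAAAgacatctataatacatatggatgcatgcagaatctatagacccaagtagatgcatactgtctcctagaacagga
TATAAA was searched on both strands and was found in 3 of the 4 promoters held for members of gut epithelium and mucosal secretion. It was found in 15.1% of the 93 promoters of all members and in 13.6% of all promoters in the table.

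Slc26a3, the chloride and bicarbonate exchanger of surface colonocytes, read 20521, 18318 and 20096 in the Mock arrays, 2402, 2573 and 2459.6 in Sham, and 1541, 1789 and 1976 in Vanillin. The Vanillin arrays lay below the Sham arrays, a difference of -0.49 (SE 0.089, adjusted p = 0.00189). Car4, the carbonic anhydrase on the colonocyte surface, read 59891, 59114 and 44522 in the Mock arrays, 6969, 8385 and 12027 in Sham, and 6433, 5916 and 6203 in Vanillin. Its groups did not overlap, but Sham spread widely, and the difference was -0.52 (SE 0.19, adjusted p = 0.0471). That call was lost in 12 of 19 alternatives, with an adjusted p of 0.0873 with the replicate number as a block and a range of 0.0147 to 0.115 over all of them. Gp2, a membrane protein of M cells that binds bacteria, read 6222, 5592 and 6054 in the Mock arrays, 536, 509 and 554 in Sham, and 155, 159.6 and 175 in Vanillin. It had the lowest Vanillin minus Sham value of all members, -1.62 (SE 0.064, adjusted p = 8.89e-08). Tff2, a trefoil peptide that protects mucosa, read 1198, 1236 and 1232 in the Mock arrays, 252, 220.4 and 226 in Sham, and 126, 128 and 117 in Vanillin, a difference of -0.83 (SE 0.060, adjusted p = 7.04e-06). Cxcl17, a chemokine of mucosal surfaces, was lower, at -0.55 (SE 0.10, adjusted p = 0.00231).

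The exception was Olfm4, a secreted glycoprotein of crypt-base and myeloid cells. It read 11220.1, 10988 and 11273 in the Mock arrays, 178, 166 and 167 in Sham, and 319, 280.4 and 305 in Vanillin. Although it stayed at 1.53% and 2.70% of Mock, it was higher in Vanillin by 0.77 (SE 0.056, adjusted p = 7.47e-06). St6galnac1, which adds sialic acid to mucins, was not called, at -0.18 (SE 0.12, adjusted p = 0.246). The colonocyte list as a whole did not share these losses: of 25 measured genes, 2 were members, 3 (Car1, Scnn1g and Hsd11b2) met the threshold only in Vanillin and 20 in neither. Its summed intensity was 417707 to 431630 in Mock, 377012 to 391083 in Sham and 353644 to 373916 in Vanillin, and its median difference from Mock was 0.050 in Sham and -0.012 in Vanillin. In Vanillin minus Sham, 16 of the 25 were lower, 2 higher and 7 not called, with a median of -0.29. None of 10 measured goblet cell genes was a member or met either threshold. Some epithelial markers of the colonocyte list are given as examples, not as a summary of the list. Epcam and Lgals4 had means from 60540 to 65510 in all groups. The highest reading of any array was 65510, so a difference in Epcam or Lgals4 could be hidden by the ceiling. Cdh17 and Vil1 had higher means in both AOM/DSS groups than in Mock.

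Among glandular genes, Csn1s1 and Csn1s2a, which encode caseins, the chief proteins of milk, had the largest mean losses.
Csn1s1, Csn2 and Csn1s2a lie in a row on chromosome 5, in the casein cluster, and their promoters are printed because each holds TTCNNNGAA, the palindromic core that STAT factors can bind, in capitals.
Csn1s1 (chr5:87665958-87666257, plus strand): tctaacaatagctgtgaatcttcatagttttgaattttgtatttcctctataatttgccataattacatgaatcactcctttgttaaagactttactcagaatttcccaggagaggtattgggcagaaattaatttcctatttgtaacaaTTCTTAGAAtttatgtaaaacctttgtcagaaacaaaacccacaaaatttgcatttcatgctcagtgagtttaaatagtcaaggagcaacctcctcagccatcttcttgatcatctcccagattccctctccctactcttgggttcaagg
Csn2 (chr5:87699376-87699675, minus strand): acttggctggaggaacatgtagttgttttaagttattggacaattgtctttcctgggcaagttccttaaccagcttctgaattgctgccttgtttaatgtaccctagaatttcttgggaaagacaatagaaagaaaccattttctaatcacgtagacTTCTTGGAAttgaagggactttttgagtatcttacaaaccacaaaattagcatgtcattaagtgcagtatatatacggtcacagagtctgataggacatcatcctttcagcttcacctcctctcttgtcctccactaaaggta
Csn1s2a (chr5:87774200-87774499, plus strand): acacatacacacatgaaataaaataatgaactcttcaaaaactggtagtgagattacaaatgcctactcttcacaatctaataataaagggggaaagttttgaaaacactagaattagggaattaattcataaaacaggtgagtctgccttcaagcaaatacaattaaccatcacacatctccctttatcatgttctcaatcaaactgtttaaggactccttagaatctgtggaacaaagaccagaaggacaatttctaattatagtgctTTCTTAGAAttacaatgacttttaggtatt
The capitals begin at base -100 from the start in Csn1s1, -93 in Csn2 and 20 in Csn1s2a.
These 3 are the matches among 7 promoters held for the milk and gland genes (42.9%), against 8.3% of all promoters in the table, both strands searched.
STAT5 is the factor through which prolactin acts on milk genes in the mammary gland.

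Csn1s1 read 5264, 5112 and 5952 in the Mock arrays, 24.4, 35.9 and 32.9 in Sham, and 98.6, 101 and 117 in Vanillin. Its arrays did not overlap between groups, and Vanillin was above Sham by 1.37 (SE 0.11, adjusted p = 9.97e-06), still at 1.94% of Mock. Csn1s2a read 2256, 2335 and 2471 in the Mock arrays, 25.8, 31.2 and 30.1 in Sham, and 29, 29.2 and 28.9 in Vanillin. Sham and Vanillin overlapped, and the difference was 0.0020 (SE 0.059, adjusted p = 0.982). Csn2 read 8248, 8774 and 8260.0 in the Mock arrays, 770.0, 831 and 596 in Sham, and 709, 739 and 590.3 in Vanillin, again with overlap and a difference of -0.10 (SE 0.12, adjusted p = 0.551). The adjacent caseins ended at different shares of their Mock level, and of these 3 probes Csn1s1 alone was called between Vanillin and Sham. Elf5, an ETS factor of mammary and keratinised epithelium, read 1529.7, 1606 and 1527 in the Mock arrays, 21.8, 10.1 and 31.7 in Sham, and 313, 294 and 299 in Vanillin, a difference of 3.14 (SE 0.18, adjusted p = 1.23e-06). Of 10 measured genes of the mammary list, 4 were members and 6 met neither threshold, and its sum was 22027 to 22987 in Mock, 3324 to 3697 in Sham and 3474 to 3872 in Vanillin.

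Ltf, lactoferrin, an iron-binding protein of milk, glands and neutrophil granules, read 41339, 42513 and 39802 in the Mock arrays, 6439, 6604 and 6445 in Sham, and 7877, 11327 and 10721 in Vanillin. It was higher in Vanillin by 0.60 (SE 0.12, adjusted p = 0.00298). The neutrophil list, of which Ltf is one of 16 measured genes, went the other way: its median difference from Mock was 2.09 in Sham and 2.32 in Vanillin, and its sum was 75627 to 80688 in Mock, 95084 to 96406 in Sham and 153232 to 161548 in Vanillin. Smgc, a submandibular gland protein, had a pair of member probes, neither called. One differed by 0.51 (SE 0.25, adjusted p = 0.122) and the other by 0.22, and on the latter the replicate block gave a call, at an adjusted p of 0.0247 in a range of 0.0247 to 0.275. Without the third Sham array, the first probe was called at 0.80 (adjusted p = 0.008, range 0.008 to 0.328).

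The nerve and glia members were few. Mbp, the myelin basic protein, read 23878, 22302 and 23484 in the Mock arrays, 2229, 2297 and 2337 in Sham, and 1106, 1169.9 and 1201 in Vanillin, and was lower in Vanillin, at -0.97 (SE 0.052, adjusted p = 7.85e-07). A second Mbp probe, not a member, went the other way: its differences from Mock were -1.79 in Sham and -1.26 in Vanillin, and it was higher in Vanillin than in Sham by 0.53 (SE 0.074, adjusted p = 3.92e-04). Slc1a2, the glial glutamate transporter, read 1104, 1123 and 1108 in the Mock arrays, 77, 103 and 81.3 in Sham, and 200.3, 207 and 201 in Vanillin, a difference of 1.10 (SE 0.084, adjusted p = 9.53e-06). Nefl, the light neurofilament of axons, read 175, 169.6 and 178 in the Mock arrays, 3.67, 3.67 and 11.4 in Sham, and 74.2, 3.56 and 2.33 in Vanillin. The first Vanillin array stood apart, Sham and Vanillin overlapped, and the difference of 0.54 (SE 0.52, adjusted p = 0.436) was not called. Neto2, a subunit of kainate receptors, was higher by 0.29, while Ngb, neuroglobin, and Celf4, a neuronal RNA-binding protein, were not called. The enteric neuron and glia list held 1 member, Nefl, among 16 measured genes, and none of the other 15 met either threshold.

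Among hormones and their receptors, Pgr, the progesterone receptor, read 5991, 5911 and 6251 in the Mock arrays, 174, 206 and 194 in Sham, and 597, 553 and 558 in Vanillin, and was higher in Vanillin by 1.50 (SE 0.066, adjusted p = 1.94e-07). Dio1, which activates thyroid hormone, read 8179, 8153 and 7972 in the Mock arrays, 1843, 1902 and 1615 in Sham, and 908, 965 and 937 in Vanillin, and was lower, at -0.92 (SE 0.065, adjusted p = 5.87e-06). These receptor and enzyme genes moved in opposite directions between the AOM/DSS groups. Igfbp2, an IGF-binding protein, was higher by 1.11 (SE 0.094, adjusted p = 1.88e-05). Il17b, an IL-17 family cytokine, was higher by 0.24 (SE 0.052, adjusted p = 0.00444). Calcb, a calcitonin gene-related peptide of sensory and enteric neurons, was not called, at 0.12 (SE 0.059, adjusted p = 0.12).

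Of 10 metabolic and matrix genes, 6 were higher in Vanillin, 2 lower and 2 not called. Over all probes, 15.7% were higher and 32.2% lower. Inmt, a methyltransferase of small amines, read 8517, 8368 and 8681 in the Mock arrays, 351, 423 and 414 in Sham, and 1639, 1811 and 1743 in Vanillin, a difference of 2.09 (SE 0.074, adjusted p = 4.22e-08). Scd4, a stearoyl-CoA desaturase, read 2434, 2589.6 and 2318 in the Mock arrays, 86.4, 68 and 115 in Sham, and 483, 471 and 464 in Vanillin, a difference of 2.23 (SE 0.14, adjusted p = 1.99e-06). Cbr2, a carbonyl reductase, and Qsox1, which forms disulphide bonds in secreted proteins, had Mock means of 28274 and 13228, and were higher by 0.52 and 0.71. Lrat, which stores retinol as esters, was higher by 0.86, and P3h4 of collagen processing by 0.43. Has2, the hyaluronan synthase, and Gstt4, a glutathione transferase, were not called, at -0.092 and -0.061. Padi4, a citrullinating enzyme best known from neutrophils, read 16871, 15755 and 17496 in the Mock arrays, 2237, 2253 and 2547 in Sham, and 1639, 1618 and 1895 in Vanillin.

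The other 26 probes had a median Vanillin minus Sham difference of 0.33, with 15 higher, 6 lower and 5 not called. The shares over all probes were 15.7% higher and 32.2% lower. The uncharacterised 2300002M23Rik read 13635, 13774 and 13948 in the Mock arrays, 145, 126 and 125 in Sham, and 848, 842 and 803 in Vanillin, a difference of 2.52 (SE 0.060, adjusted p = 2.11e-09). Tmem213, a small membrane protein, read 1436, 1386 and 1331 in the Mock arrays, 23.2, 20.8 and 17.3 in Sham, and 15.1, 12.8 and 13 in Vanillin. It was at 1.48% and 0.985% of Mock, and lower in Vanillin, at -0.30 (SE 0.069, adjusted p = 0.00663). Ndufa4l2, a mitochondrial protein induced by low oxygen, read 2429, 2615 and 2402 in the Mock arrays, 37.7, 44.8 and 48.8 in Sham, and 553, 511 and 532 in Vanillin, a difference of 3.20 (SE 0.075, adjusted p = 1.93e-09). Nkpd1, a predicted NTPase, differed by 3.04 (SE 0.052, adjusted p = 2.14e-10), and Ctxn3 of the cortexin family by 2.08. Meis1, a homeobox cofactor, and Mgarp, a mitochondrial protein of steroid-producing cells, were higher by 1.46 and 1.06. Serpinb11, a serpin with a Mock mean of 12126, was higher by 0.31. Rtn2, Aknad1, Tmem45a2, Tent5b, Serpina9, Angptl7 and Pcp4 were also higher, by 0.34 to 2.06, while 3300002I08Rik, Gm13749, Olfr220 and Pcdh17 were not called, at -0.0058 to 0.19.

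Some of these genes were lower in Vanillin. 2310079G19Rik read 2789, 2855 and 3001 in the Mock arrays, 439.6, 394 and 482 in Sham, and 242, 200.3 and 216 in Vanillin, a difference of -0.95 (SE 0.087, adjusted p = 3.03e-05). Odf3b, named for outer dense fibres of sperm tails, was lower, at -0.62 (SE 0.057, adjusted p = 3.24e-05). Capsl, a calcium-binding calcyphosine-like protein, Kbtbd11 and Ttc36 were at -0.23, -0.23 and -0.17, and the calls of Ttc36 and Capsl did not hold in every alternative. Over the alternatives the adjusted p ran from 0.0172 to 0.0756 for Ttc36 and from 0.00374 to 0.0506 for Capsl. Adam28, a membrane metalloprotease, read 934, 878 and 968 in the Mock arrays, 211, 217 and 1.22 in Sham, and 178, 195 and 0.89 in Vanillin, with overlap between Sham and Vanillin. The third array of both AOM/DSS groups read near 1 while their other arrays lay between 178 and 217, and the standard deviation on the log2 scale was 2.16 in Sham and 2.07 in Vanillin. Without the third array, Sham minus Mock was -2.03 instead of -3.28 and Vanillin minus Mock was -2.22 instead of -3.41, both still past the threshold on this probe. Other Adam28 probes, not members, differed from it and from each other. One had no loss (0.011 in Sham and 0.29 in Vanillin) and was higher in Vanillin than in Sham by 0.28 (adjusted p = 0.00863). Another had -1.66 and -2.61 and was lower in Vanillin, at -0.95 (adjusted p = 1.24e-05).

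Several probes of one gene did not always share its loss. For 21 of the 115 genes the array holds further named probes, 32 in all, of which 14 were below -1 in both differences from Mock and 18 were above -1 in both. In 10 genes the probe with the highest mean log2 value over all 9 arrays was not the member. That Tpm1 probe had means of 28322 in Mock, 14680 in Sham and 16512 in Vanillin, so its differences were -0.95 and -0.78, against -6.05 and -2.01 on the member probe. Tpm1 makes several proteins by alternative exons, among them muscle and non-muscle forms, and which exons these probes read was not looked at. That Naca probe, for a chaperone of nascent peptides in all cells, had differences of 0.028 and -0.024, whereas the member probe had -2.37 and -2.11. The Naca member read 199, 201 and 203 in the Mock arrays, 27.1, 22 and 29.1 in Sham, and 39.4, 34.9 and 28.9 in Vanillin, with overlap between Sham and Vanillin, and its call as higher, 0.26 (SE 0.088, adjusted p = 0.0371), held in 8 of 18 alternatives, with an adjusted p of 0.0572 with the replicate block (range 0.0115 to 0.118). The other Calml3 probe had differences of -6.20 in Sham and -1.16 in Vanillin, and was past the threshold in Sham alone. Ldb3, Trdn, Cox6a2, Rpl3l, Fbxl22, Adam28, Celf4, Kbtbd11, Rtn2, Slc1a2, Smgc, Tmem45a2 and 2310079G19Rik also had a probe above -1 in both differences. Some of these probes read low in every group, such as that of 2310079G19Rik, with means of 0.52 in Mock, 0.74 in Sham and 0.89 in Vanillin.

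**Figure D5:**
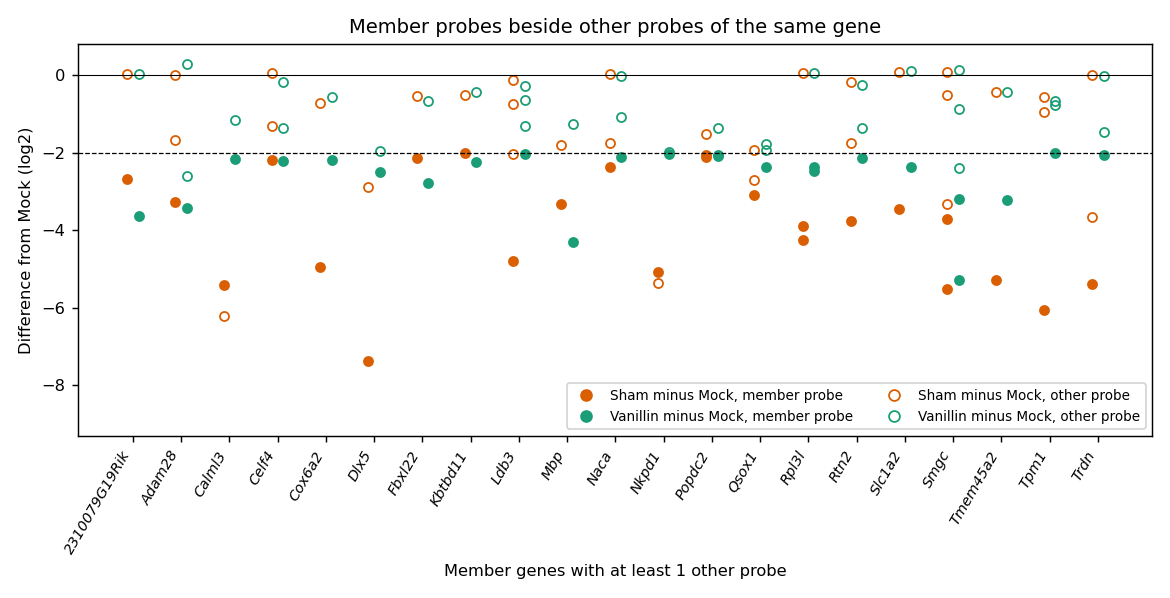
Sham minus Mock (orange) and Vanillin minus Mock (green) difference in log2(intensity + 16) for the 21 member genes with at least 1 further probe; filled points are member probes and open points the other probes, and the dashed line marks -2. Open points lie near 0 for several genes, among them Naca, Trdn and Rpl3l, while the filled points of these genes lie at or below -2.

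Some members also share a place in the genome. Of the 114 member genes that could be placed, 16 pairs had at most 4 protein-coding genes between them. They include the casein trio, the protease trio Tmprss11a, Tmprss11b and Tmprss11d, the trio Padi1, Padi2 and Padi4, and the pairs Gjb2 with Gjb6, Duox1 with Duoxa1 and Olfm4 with Pcdh17. Within the Padi trio the Vanillin minus Sham differences had opposite signs, and within the casein trio only Csn1s1 was called. No count of neighbours over other sets of genes was made.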

How the data were processed

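RNA from mouse colon was amplified, labelled with Cy5 and hybridised to single-channel arrays, per the labels' protocols. The deposited table holds the intensity of each of 26423 probes on a linear scale in 9 arrays. The submitters' processing notes name limma, with neither its role nor its version. In the deposited intensities each array has 3 to 14 values below 0 and a median from 319.6 to 320.1, and sorted log2 values differ between arrays by at most 0.109, so background had been subtracted and the distributions made alike by the authors. How background was estimated, how arrays were normalized and whether probes were filtered is not given in the sources used here, and no depth applies to arrays, where the 3 arrays per group limit the precision. Arrays of a group correlated at 0.995 to 0.998 on the log2 scale.

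Gene symbols came from the platform's table. They were updated through RefSeq's gene table, with 18213 named probes matched by symbol, 2126 by synonym and 38 unmatched. Negative intensities were set to 0, 16 was added and log2 taken. limma 3.58.1 in R 4.3.3 was fitted to all probes and 9 arrays with the group as the only term, after the calculation was tested on simulated data. Differences between Vanillin and Sham were called at a Benjamini-Hochberg adjusted p under 0.05. Promoters came from a RefSeq table on GRCm38.p6 that holds 78 of the 115 genes, and 8 motifs were searched on both strands. No reference genome was used here.

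The members and the 31 gene lists were chosen with earlier results of these data known, and the roles after the values were seen. A gene outside the chosen set or the lists was named only as one of the 5 probes nearest outside the threshold or as a marker of the tissue, apart from the probes left out for their symbol, some of which the closing section names after their values were seen. Members were given values by a rule: the largest mean losses, the largest differences in either direction between Vanillin and Sham, up to 6 per list, those next to the threshold, those in no list with the highest Mock intensity, and those with other probes. Further members were named as examples of their role after their values were seen.

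The labels give the arrays replicate numbers. Deviations from the group means of same-numbered Sham and Vanillin arrays correlated at 0.169, 0.126 and 0.201, while those of Mock correlated at -0.0162 to -0.117 with Sham and -0.103 to -0.288 with Vanillin. The numbers may therefore pair Sham with Vanillin, although arrays with different numbers were not compared. The reported fit leaves any pairing out, and fits with the replicate number as a block were added as alternatives. Other alternatives changed the pseudocount, the filter on dim probes, the scaling, the arrays in the fit, the weights and the variance prior.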

Additional observations from a re-analysis of the deposited data

How the results depend on the processing

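No member changed direction among the called values in any of the 19 refits, and 108 of the 118 probes kept their call in every refit that held them. The other 10 were Car4, Naca, Nmrk2, Smgc on both probes, Tnnt2, Ttc36, Capsl, Gm13749 and St6galnac1. With the replicate block, 80 members were higher, 79 of them shared with the fit without it, and 16 were lower. With the block in the 6 Sham and Vanillin arrays alone, an alternative chosen after seeing the data, the counts were 80 and 15. Beyond the members named in the report, the block changed no call in the fit of all arrays. Over all refits, 76 to 82 members were higher and 15 to 18 lower. The count of 76 came from the refit without the dimmest 30% of probes, which held fewer members. The rule itself gave 135 probes with a pseudocount of 1, 89 with 64, 107 without the dimmest 30% of probes and 115 to 126 with an array left out. The median Vanillin minus Sham difference was 0.63 with a pseudocount of 64, 0.86 without the dimmest 30% of probes and 0.75 to 0.85 with an array left out. Among members at least 0.5 further past the threshold it was 0.56, with 30 higher and 9 lower, since fewer probes were held. That stricter cut uses the same losses as the rule, so it cannot test what the rule itself brings about. Without its first Vanillin array, Nefl had a Vanillin minus Mock difference of -3.33 instead of -2.58. With 3 arrays per group, low intensities such as those of Nefl and Adam28 are the least certain. The size of a difference also moved where Sham read low. Over the refits, Vanillin minus Sham ran from 3.47 to 6.15 for Dlx5, from 2.57 to 4.92 for Smtnl1 and from 2.66 to 4.76 for Spink12.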

Other observations

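Most of the probes that the naming rule left out belong to structural proteins of the same squamous programme. They include Krt4, Krt13, Krt16, Krt76 and Krt78, keratins that build the filaments of stratified epithelium, and Sprr1b and Sprr3, small proteins that are cross-linked into the cornified envelope. Sprr1b had a difference from Mock of -8.79 in Sham and -3.46 in Vanillin, and Lce3f, a late envelope protein, of -8.16 and -2.45. Krt76, a keratin of the palate and gums, had -6.45 and -6.46. Muc5b, a gel-forming mucin of airway and salivary glands, had -8.70 and -8.90 on one probe and -6.46 and -6.80 on another. Klk12, a kallikrein protease, had -6.05 and -3.40. Muc5b and Klk12 are not structural proteins of that programme. Nor are Cldn22 (-6.15 and -5.89), Hoxb2 (-3.43 and -2.23) and the left-out probe of Smgc (-3.32 and -2.38). These genes were picked from 21 probes after their values were seen.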
